A study of Mus musculus with 8 samples.

Results

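The genes described here are a list around the Atf4 amino acid response and tRNA charging, read in mouse dorsal root ganglia. They are the kinases, factors and feedback genes around Atf4, enzymes of amino acid synthesis and folate metabolism, and the cytosolic aminoacyl-tRNA synthetases. They were taken by symbol, 35 genes of 24033 in the table, in 3 roles. These were 9 genes of the stress response core, 8 enzymes of amino acid and folate metabolism, and 18 synthetases. The core includes Eif2ak3, a kinase of endoplasmic reticulum stress, so the list is not particular to a shortage of amino acids. Every gene was listed under its symbol, and 32 had enough counts to be tested. The injury group held L4 to L6 ganglia taken 24 h after a crush of the sciatic nerve on that side, in 4 libraries. The naive group, also 4 libraries, held ganglia of the uncrushed side of crushed mice, so it is an uninjured side and not an unoperated animal. Each repeat pooled ganglia of 2 mice, and the labels describe the ganglia as dissociated. The labels used here name no strain, age or sex.

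In the integrated stress response, kinases that sense a shortage of amino acids, misfolded protein in the endoplasmic reticulum or other stress phosphorylate the initiation factor eIF2. General translation then slows while the mRNA of Atf4, a bZIP transcription factor, is translated more. Atf4 with C/EBP partners binds composite elements in genes for amino acid synthesis, transport and tRNA charging. Aminoacyl-tRNA synthetases join each amino acid to its tRNA; some of the cytosolic ones sit together in a multisynthetase complex, the others act outside it, and a separate nuclear gene set serves the mitochondria. In a sensory neuron these products supply protein synthesis in the cell body and along the axon.

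Counts come from QuantSeq REV libraries, which read the 3′ end of polyadenylated transcripts, with 15422482 to 29368107 counts per library. Levels are counts normalised to library size (CPM) with TMM factors. Changes are log2 fold changes of injury over naive, tested with edgeR's quasi-likelihood test in all 8 libraries and called at a Benjamini-Hochberg adjusted p under 0.05 over 13639 genes. Naive library 1 stood apart from the others on the second principal component, at 46.6 against -21.1 to 11.3, so calls that depend on it are named. All 10 sensory neuron markers were detected; their summed level was 13872 to 15445 CPM in injury and 13767 to 14852 CPM in naive libraries. In bulk RNA of a ganglion, fewer cells of a type and less RNA per cell cannot be told apart.

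Of the 32 tested genes, 15 rose on the injured side and 0 fell, where 8.12% of all tested genes rose and 4.47% fell. By role, 5 of 8 tested core genes, 1 of 6 tested amino acid and folate enzymes (the folate enzyme Mthfd2) and 9 of 18 synthetases rose. The median log2 fold change of the 32 was 0.24, against -0.004 over all tested genes, and 29 of them had a fold change above 0. The genes were chosen with earlier results of these data known, so contrasts with all genes describe the list and are not a test. In 18 of the 32 every injury library exceeded every naive library, where this held for 9.80% of all tested genes; the converse held for 0 of the 32, against 7.02% of all tested genes. Of the 15, 10 were called under each of the 16 alternative settings: Atf4, Ddit3, Chac1, Trib3, Ppp1r15a, Mthfd2, Iars, Aars, Cars and Gars. Scaling by library totals, which lowers the higher share among all calls to 47.04% from 64.5%, left 10 of the 15.

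**Figure D1:**
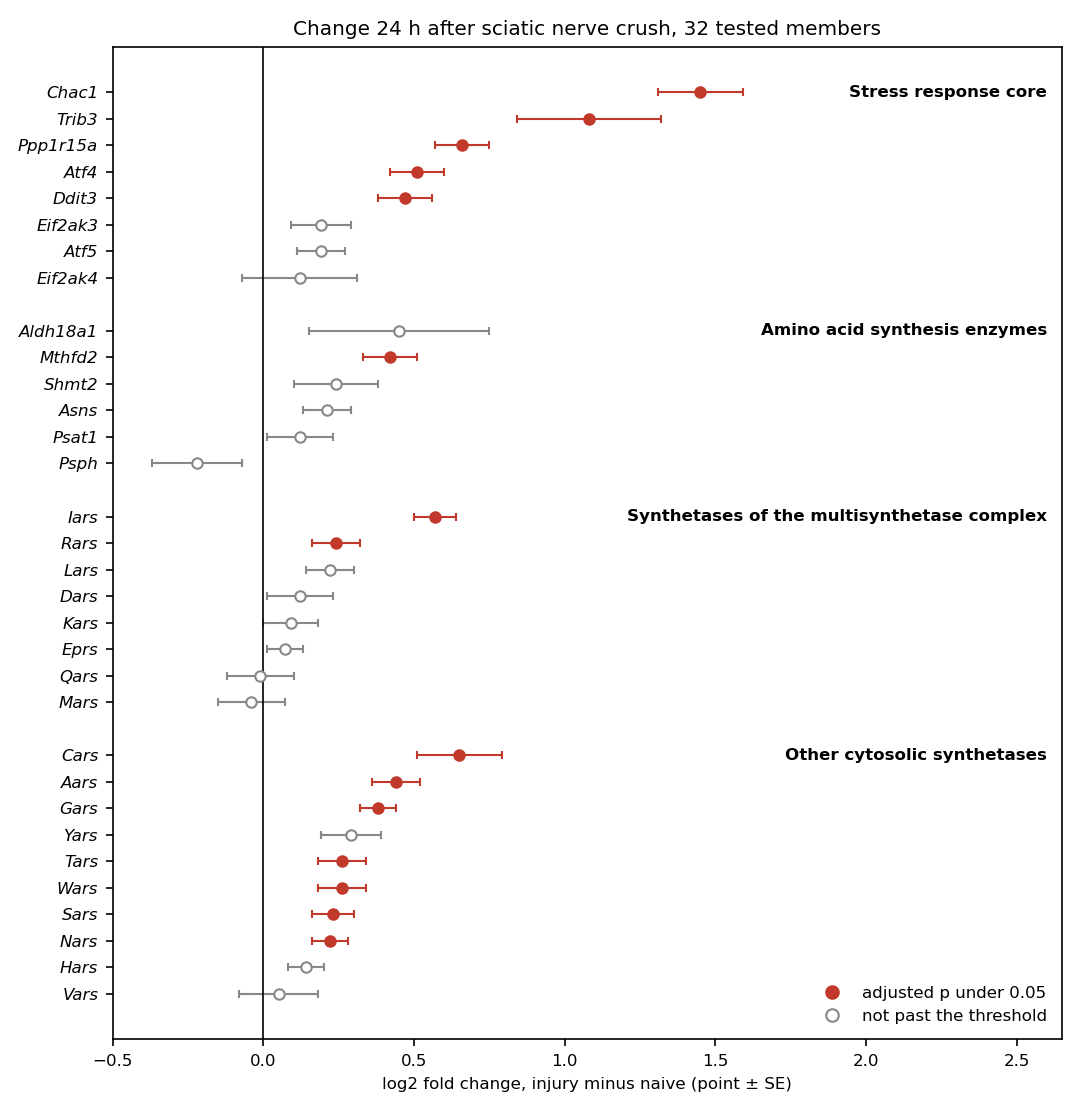
Log2 fold change of injury over naive on the horizontal axis for the 32 tested genes, grouped by role on the vertical axis and ordered by size; points are edgeR estimates, bars are 1 SE, and filled points passed an adjusted p of 0.05. Chac1 at 1.45 and Trib3 at 1.08 lie furthest to the right, and no gene with a negative value passed the threshold. The group labelled amino acid synthesis enzymes includes the folate enzyme Mthfd2.

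Several of these genes hold a match to the composite C/EBP-ATF element near their RefSeq start. A single motif, TGATGNAA, was searched on both strands, where it reads TTNCATCA on the reverse strand, in the 250 bases before and 50 bases after each start. RefSeq windows on GRCm38.p6 were found for 28 of the 35 genes, and 9 of the 28, 32.1%, held a match. Of all 27025 genes with a window, 4.51% did. The list was drawn up in part from Atf4 targets, and Atf4 binds such elements. The contrast of these shares therefore describes how the list was made and is not a test. The 9 genes with a match were 2 of 9 core genes, 2 of 8 amino acid and folate enzymes and 5 of 11 synthetases. The sites below, some of those found, are shown because they belong to core and synthetase genes described next and to Asns, a textbook target of this element. They read 5′ to 3′ on the gene's own strand with the match in capitals, and a match is a description of the letters and not of binding.
Chac1: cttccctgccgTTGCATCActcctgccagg
Trib3: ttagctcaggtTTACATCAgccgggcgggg
Asns: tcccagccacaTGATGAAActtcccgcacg
Iars: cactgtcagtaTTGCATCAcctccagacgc
Gars: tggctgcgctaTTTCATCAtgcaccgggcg
Tars: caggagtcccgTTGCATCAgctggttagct
Yars: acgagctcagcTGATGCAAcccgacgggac
The Chac1 site, chr2:119351038-119351067 on the plus strand, has its match 193 bases upstream of the start. The Trib3 site, chr2:152344028-152344057 on the minus strand, has it at base 15 after the start. The Asns site lies at chr6:7693214-7693243 on the minus strand, its match 23 bases upstream. Among the synthetases, the match stood 30 bases upstream in Gars (chr6:55037960-55037989, plus) and 15 bases upstream in Tars (chr15:11399655-11399684, minus). It stood at base 8 after the start in Iars (chr13:49682126-49682155, plus) and at base 4 in Yars (chr4:129189895-129189924, plus). For Yars the start used lies inside the gene, whose RefSeq span begins at 129189734. Of the genes whose sites are shown, Chac1, Trib3, Iars, Gars and Tars rose; Asns and Yars did not pass the threshold. Atf4, Ddit3, Ppp1r15a, Mthfd2 and Sars rose with no match in this window. Some of the other genes that rose, Cars among them, had no window to search.

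Atf4 and Ddit3 rose among the transcription factors of the pathway, and Atf5 did not pass the threshold. Atf4 (chromosome 15, 80255184 to 80257545 on GRCm38) had 461, 558, 593 and 641 CPM in injury libraries 1 to 4, against 344, 389, 416 and 428 CPM in naive libraries 1 to 4. The groups did not overlap, with injury library 1 the lowest of its group and naive library 1 the lowest of its own. Atf4 rose 1.43-fold (log2 fold change 0.51 ± 0.09 (SE), edgeR adjusted p = 0.00128), and between same-numbered libraries the log2 ratio of injury over naive was 0.42 to 0.58. Ddit3, the pro-apoptotic factor CHOP (chromosome 10, 127290793 to 127296291), had 50.7, 59.4, 56.8 and 58.3 CPM in injury libraries 1 to 4, against 39.1, 38.3, 39.97 and 45.2 CPM in naive libraries 1 to 4. Its injury libraries all lay above its naive ones (log2 fold change 0.47 ± 0.09 (SE), edgeR adjusted p = 0.00104). The exons of Ddit3 overlap those of Mars, which is read from the other strand and had a log2 fold change of -0.04; with the strand setting of the counting unknown, counts of such pairs are uncertain. Atf5, a related bZIP factor, had 84.5, 87.5, 85.9 and 106 CPM in injury libraries 1 to 4, against 72.8, 79.2, 83.3 and 82.9 CPM in naive libraries 1 to 4. Its groups were apart by a narrow margin and injury library 4 stood above the rest, and the gene did not pass the threshold (log2 fold change 0.19 ± 0.08 (SE), edgeR adjusted p = 0.149). Its exons overlap the opposite-strand gene Nup62, which was itself called higher (log2 fold change 0.37, edgeR adjusted p = 0.0141).

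Among the 32 tested genes, the largest fold changes were those of feedback and effector genes known as targets of Atf4 and Ddit3. Whether these factors caused the changes was not tested. Chac1, which degrades glutathione (chromosome 2, 119351242 to 119354326), had 32.9, 37.8, 31.9 and 33.9 CPM in injury libraries 1 to 4, against 11.9, 13.3, 15.2 and 9.76 CPM in naive libraries 1 to 4. The lowest injury library stood above the highest naive one by more than the spread within either group, and the rise was 2.73-fold (log2 fold change 1.45 ± 0.14 (SE), edgeR adjusted p = 3.93e-08; log2 ratio between same-numbered libraries 1.07 to 1.79). Trib3, a pseudokinase that restrains Atf4 and Akt signalling (chromosome 2, 152337425 to 152344060), had 5.84, 8.39, 10.8 and 9.27 CPM in injury libraries 1 to 4, against 4.77, 3.14, 4.42 and 3.91 CPM in naive libraries 1 to 4. The groups did not overlap and the rise was 2.12-fold (log2 fold change 1.08 ± 0.24 (SE), edgeR adjusted p = 0.00291), on 676 counts over the injury libraries and 360 over the naive ones. Ppp1r15a, the stress-induced subunit GADD34 that directs phosphatase to eIF2 (chromosome 7, 45522917 to 45526268), had 65.2, 57.5, 54.4 and 66.5 CPM in injury libraries 1 to 4, against 36.3, 37.7, 41.4 and 38.9 CPM in naive libraries 1 to 4. All 4 injury libraries were higher, with a rise of 1.58-fold (log2 fold change 0.66 ± 0.09 (SE), edgeR adjusted p = 2.08e-05). Sesn2, a leucine sensor upstream of mTORC1, was too sparse to test, with 31 counts over the injury libraries and 15 over the naive ones.

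The kinases that start the pathway did not pass the threshold. Eif2ak3, the endoplasmic reticulum kinase PERK, had 50.2 to 58.6 CPM in injury libraries, against 40.1 to 54.7 CPM in naive libraries, with overlapping groups (log2 fold change 0.19 ± 0.10 (SE), edgeR adjusted p = 0.27). Eif2ak4, the amino acid sensing kinase GCN2, had 7.44 to 10.9 CPM in injury libraries, against 6.78 to 9.47 CPM in naive libraries (log2 fold change 0.12 ± 0.19 (SE), edgeR adjusted p = 0.779). Summed over the 9 core genes, of which Atf4 gives most, the level was 758, 874, 902 and 981 CPM in injury libraries 1 to 4. It was 571, 623, 649 and 663 CPM in naive libraries 1 to 4, with both libraries of number 1 the lowest of their groups.

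**Figure D2:**
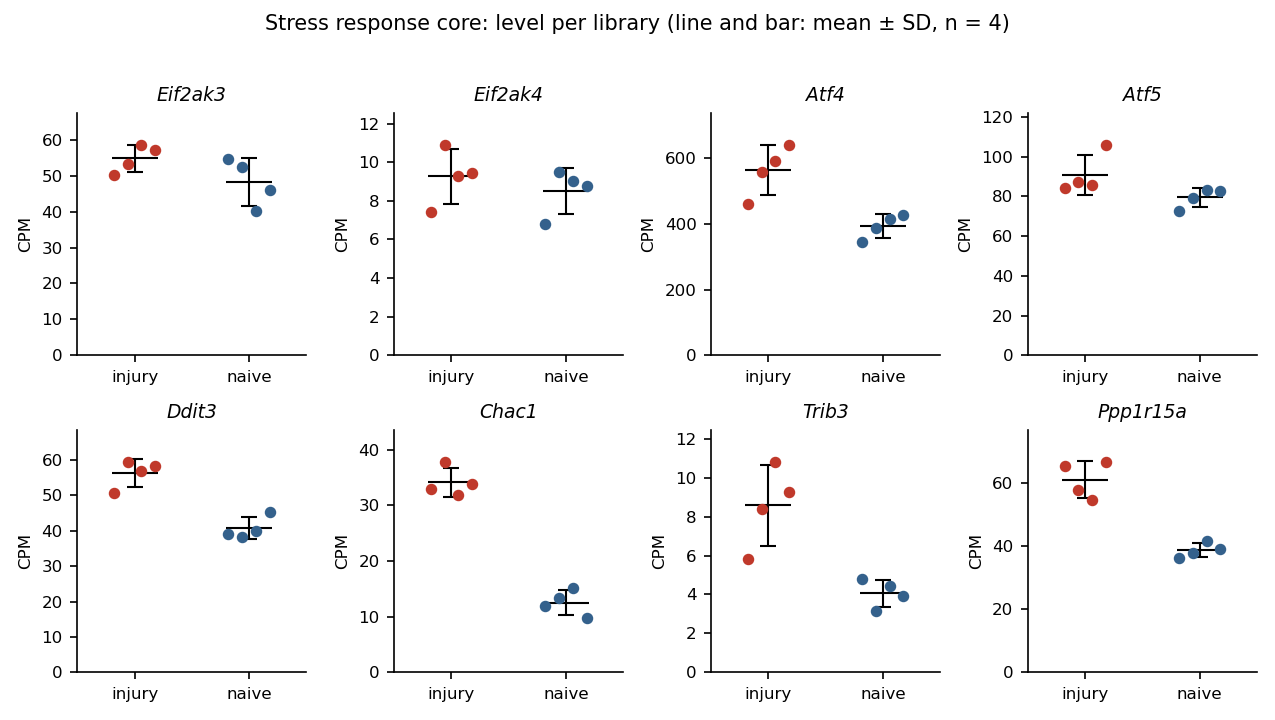
TMM-scaled CPM of the 8 tested core genes on the vertical axis, with injury libraries on the left and naive libraries on the right of each panel; dots are libraries 1 to 4 from left to right, and the line and bar give mean ± SD. Chac1 lies between 31.9 and 37.8 CPM in injury libraries, against 9.76 to 15.2 CPM in naive libraries, while Eif2ak3 and Eif2ak4 overlap.

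Among the enzymes of amino acid and folate metabolism, Mthfd2 was the single gene to rise. The tested enzymes that act in amino acid synthesis itself did not pass the threshold. Mthfd2, a mitochondrial folate enzyme of the serine-driven pathway (chromosome 6, 83305704 to 83326011), had 94.4, 101, 82.5 and 86.2 CPM in injury libraries 1 to 4, against 80.5, 71.04, 62.8 and 59.2 CPM in naive libraries 1 to 4. The groups did not overlap, though injury library 3 at 82.5 CPM was close to naive library 1 at 80.5 CPM (log2 fold change 0.42 ± 0.09 (SE), edgeR adjusted p = 0.00327). Asns, asparagine synthetase (chromosome 6, 7675165 to 7693209), had 69.4, 70.1, 72.4 and 75.1 CPM in injury libraries 1 to 4, against 64.4, 58.02, 66.4 and 59.4 CPM in naive libraries 1 to 4. Every injury library lay above every naive one, but the shift was small and did not pass the threshold (log2 fold change 0.21 ± 0.08 (SE), edgeR adjusted p = 0.0921), also under all 16 alternatives (adjusted p 0.0606 to 0.25). Shmt2, the mitochondrial serine hydroxymethyltransferase that works upstream of Mthfd2, had 17.1 to 22.3 CPM in injury libraries, against 15.4 to 19.4 CPM in naive libraries (log2 fold change 0.24 ± 0.14 (SE), edgeR adjusted p = 0.295). Of the serine synthesis enzymes, Psat1 (phosphoserine aminotransferase) had 33.2 to 44.5 CPM in injury libraries, against 32.7 to 40.4 CPM in naive libraries (log2 fold change 0.12 ± 0.11 (SE), edgeR adjusted p = 0.568). Psph (phosphoserine phosphatase) had 14.4 to 18.96 CPM in injury libraries, against 16.8 to 23.98 CPM in naive libraries (log2 fold change -0.22 ± 0.15 (SE), edgeR adjusted p = 0.391). Psph was the only tested enzyme with a negative fold change. Aldh18a1, which starts proline synthesis, had an estimate close to that of Mthfd2, with a larger error, on 315 injury and 267 naive counts in all (log2 fold change 0.45 ± 0.30 (SE), edgeR adjusted p = 0.398). Phgdh, the entry enzyme of serine synthesis, and Pycr1, which completes proline synthesis, were too sparse to test. Phgdh had 19 counts over the injury libraries and 34 over the naive ones, and Pycr1 had 12 over the injury libraries and 27 over the naive ones.

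Of the 18 synthetases, 9 rose and 0 fell, where 8.12% of all tested genes rose and 4.47% fell. The median log2 fold change of the synthetases was 0.22. Their summed level was 2159 to 2362 CPM in injury libraries, against 1885 to 1943 CPM in naive libraries, without overlap. The count of rises was 11 with the replicate block, 10 with DESeq2 and 8 with limma-voom. It was 4 with library totals, 4 without injury library 4 and 5 without naive library 2, and 6 without naive library 1. The count of rises over all genes also moved. It was 1108 in the main fit, 1245 with the block, 1225 with DESeq2 and 1107 with limma-voom. With library totals it was 889, without injury library 4 847, without naive library 2 917 and without naive library 1 1129. Outside the multisynthetase complex, 7 of 10 rose, with a median of 0.26. Within it, 2 of 8 rose, with a median of 0.10; the difference between these groups was not tested.

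Iars, Cars, Aars and Gars were called under every alternative. Iars, the isoleucyl enzyme of the complex (chromosome 13, 49682130 to 49734267), had 139, 143, 159 and 156 CPM in injury libraries 1 to 4, against 111, 95.5, 104 and 92.7 CPM in naive libraries 1 to 4. The lowest injury library was well above the highest naive one, naive library 1, and the rise was 1.49-fold (log2 fold change 0.57 ± 0.07 (SE), edgeR adjusted p = 4.45e-06). Cars, the cysteinyl enzyme (chromosome 7, 143557230 to 143600090), had 19.04, 21.2, 17.8 and 24.7 CPM in injury libraries 1 to 4, against 14.1, 12.8, 12.5 and 13.4 CPM in naive libraries 1 to 4. Its groups did not overlap (log2 fold change 0.65 ± 0.14 (SE), edgeR adjusted p = 0.00229), and injury library 4 was the highest. Aars, the alanyl enzyme (chromosome 8, 111027778 to 111055569), had 89.6, 92.9, 105 and 94.2 CPM in injury libraries 1 to 4, against 66.98, 69.8, 67.8 and 76.5 CPM in naive libraries 1 to 4. It rose 1.36-fold (log2 fold change 0.44 ± 0.08 (SE), edgeR adjusted p = 0.000284); Exosc6 overlaps it on the same strand and was also called higher (log2 fold change 0.47, edgeR adjusted p = 0.0162), so these counts are uncertain too. Gars, the glycyl enzyme, whose single gene serves both cytosol and mitochondria (chromosome 6, 55038001 to 55079504), had 285, 308, 319.8 and 331 CPM in injury libraries 1 to 4, against 231, 234, 237 and 252 CPM in naive libraries 1 to 4. Its naive libraries were close together and all injury libraries lay above them (log2 fold change 0.38 ± 0.06 (SE), edgeR adjusted p = 6.09e-05).

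The other 5 rises were of about 1.2-fold and hung on single libraries. Nars (asparaginyl) had 409.9, 422, 405 and 476 CPM in injury libraries 1 to 4, against 359.8, 385, 359 and 371 CPM in naive libraries 1 to 4 (log2 fold change 0.22 ± 0.06 (SE), edgeR adjusted p = 0.0137); it was not called without injury library 4 (0.0837), without naive library 3 (0.0659) or with library totals (0.0592). Wars (tryptophanyl, also known as an interferon-induced gene) had 70.2, 78.1, 71.6 and 76.3 CPM in injury libraries 1 to 4, against 61.9, 58.9, 60.9 and 64.9 CPM in naive libraries 1 to 4 (log2 fold change 0.26 ± 0.08 (SE), edgeR adjusted p = 0.0263). The call of Wars was lost without injury library 2 or 4 (0.0971 and 0.0807), without naive library 2 or 3 (0.0922 and 0.0861) and with library totals (0.0772). Sars (seryl) had 174, 176, 187 and 199 CPM in injury libraries 1 to 4, against 136, 159.6, 166 and 164 CPM in naive libraries 1 to 4, naive library 1 being the lowest (log2 fold change 0.23 ± 0.07 (SE), edgeR adjusted p = 0.0293). The call of Sars was lost without naive library 1 or 2 (0.087 and 0.0606), without injury library 3 or 4 (0.0779 and 0.129) and with library totals (0.082). Tars (threonyl) and Rars (arginyl, in the complex) had adjusted p of 0.0361 and 0.048 by edgeR, with non-overlapping groups. Tars had 62.7 to 67.6 CPM in injury libraries, against 50.9 to 57.7 CPM in naive libraries. Of the 8 fits that left out a library, it was called in the one without naive library 4 and missed the threshold in the other 7 (adjusted p 0.0541 to 0.142). Rars had 83.6 to 99.5 CPM in injury libraries, against 72.2 to 81.3 CPM in naive libraries. It was called in the fit without injury library 1 and missed the threshold in the other 7 (0.061 to 0.177). Library totals gave 0.101 for Tars and 0.123 for Rars, and Rars also missed the threshold with DESeq2 size factors (0.0508) and limma-voom (0.0592). With no filter on low counts they had 0.0504 and 0.0531, and Tars had 0.0836 without both libraries of number 1.

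**Figure D3:**
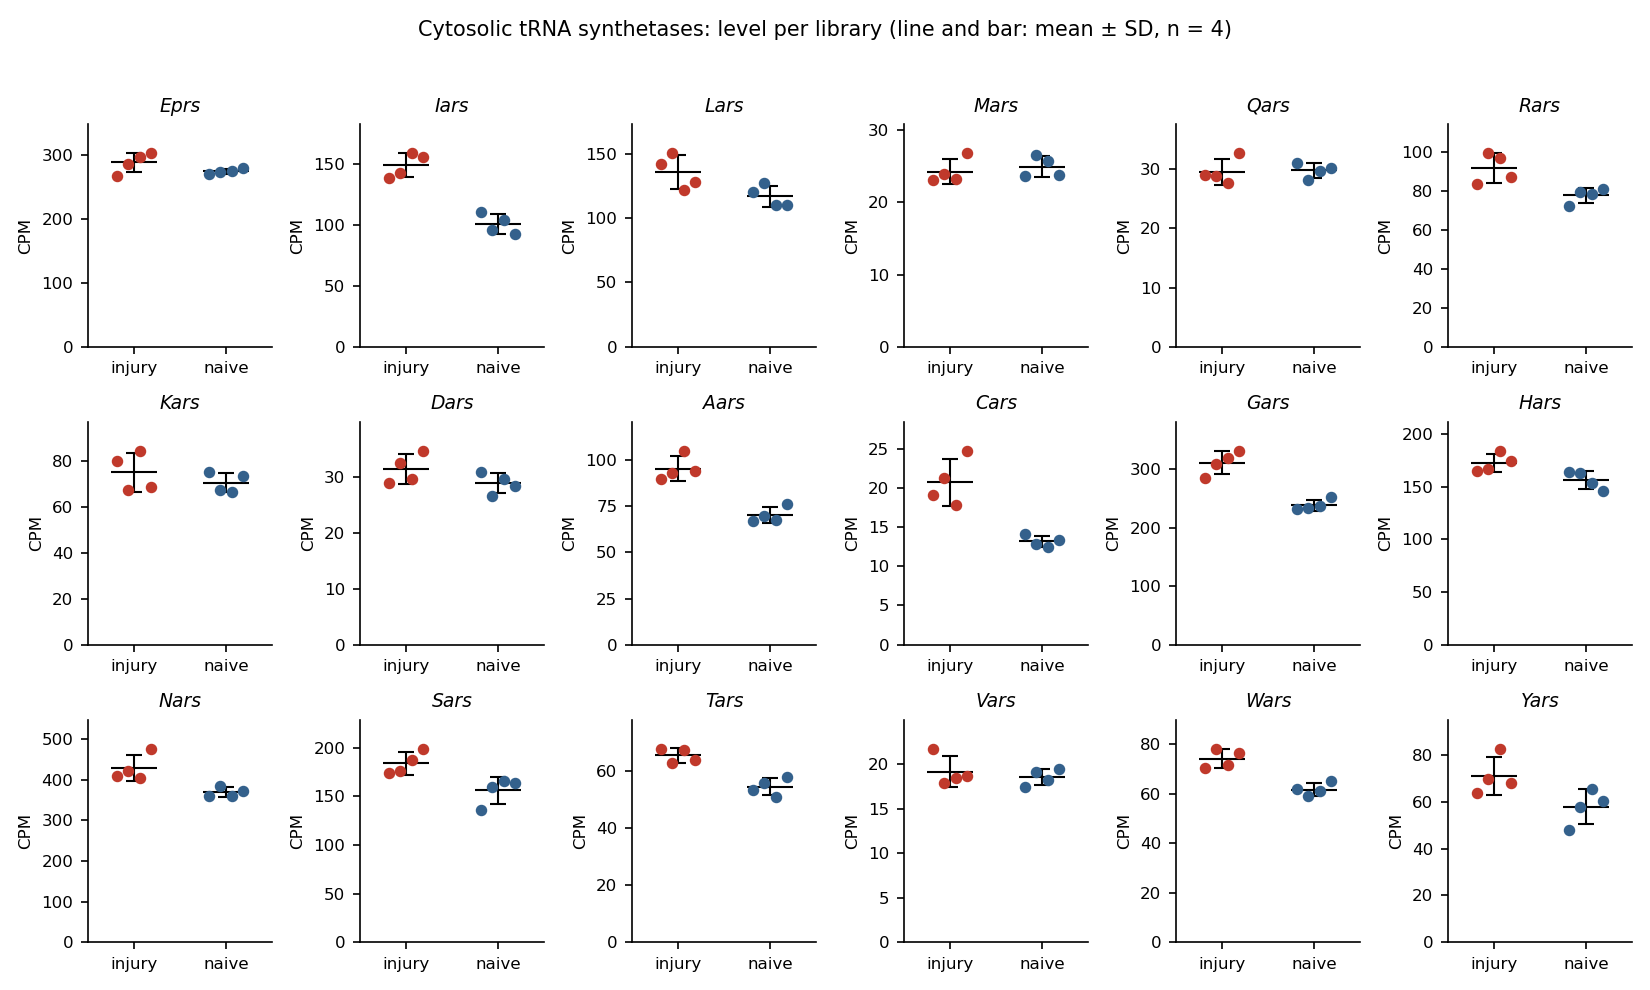
TMM-scaled CPM of the 18 cytosolic synthetases on the vertical axis of each panel, injury libraries on the left and naive libraries on the right; dots are libraries 1 to 4 from left to right, and the line and bar give mean ± SD. Iars lies between 139 and 159 CPM in injury libraries, against 92.7 to 111 CPM in naive libraries, while Mars, Qars and Vars overlap.

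The 9 remaining synthetases did not pass the threshold. Yars (tyrosyl) had 63.8, 69.5, 82.5 and 67.8 CPM in injury libraries 1 to 4, against 47.8, 57.5, 65.4 and 60.3 CPM in naive libraries 1 to 4, with overlapping groups (log2 fold change 0.29 ± 0.10 (SE), edgeR adjusted p = 0.0521). It was called in 6 of the 16 alternatives: with the replicate block (adjusted p = 0.0106), DESeq2 (0.0429), no filter on low counts (0.0331) or a minimum mean of 5 CPM (0.0483), and without injury library 1 (0.0257) or naive library 3 (0.0391). The exons of Yars overlap those of the opposite-strand gene C77080, so its counts are uncertain. C77080 had a mean of 109 CPM in injury and 112 CPM in naive libraries (log2 fold change -0.04). Lars (leucyl, in the complex) had 142, 150.3, 122 and 128 CPM in injury libraries 1 to 4, against 119.9, 127, 110.3 and 110.4 CPM in naive libraries 1 to 4 (log2 fold change 0.22 ± 0.08 (SE), edgeR adjusted p = 0.0652), and was called with the block (0.0219) and without injury library 3 (0.035). Hars (histidyl) had 165 to 184 CPM in injury libraries, against 146 to 164 CPM in naive libraries, groups that just did not overlap (log2 fold change 0.14 ± 0.06 (SE), edgeR adjusted p = 0.178); its exons overlap the opposite-strand Hars2. The other 6 were Eprs, Dars, Kars, Vars, Qars and Mars, with log2 fold changes of 0.07, 0.12, 0.09, 0.05, -0.01 and -0.04 and SEs of 0.06 to 0.13. All of these belong to the multisynthetase complex but Vars, and Kars, like Gars, is a single gene for both compartments. For Eprs, the fused glutamyl and prolyl enzyme, the 4 naive libraries lay within 270.5 to 279 CPM and the injury libraries within 268 to 303 CPM. Its highest naive library lay above its lowest injury library.

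None of the 17 separate mitochondrial synthetases was called higher or lower by edgeR, and their log2 fold changes ran between -1.06 and 0.39 with a median of -0.22. At an unadjusted p under 0.05, 5 were lower and 0 higher, where 11.2% of all tested genes were lower and 13.4% higher. The replicate block called 1 lower, DESeq2 1 lower, library totals 2 lower and limma-voom 0. Iars2, the mitochondrial counterpart of Iars, had 53.5 to 61.4 CPM in injury libraries, against 62.03 to 72.1 CPM in naive libraries (log2 fold change -0.24 ± 0.08 (SE), edgeR adjusted p = 0.0629; 0.0338 with the block). Fars2, the phenylalanyl enzyme, had a log2 fold change of -0.36 (edgeR adjusted p = 0.083). Pars2, the prolyl enzyme, had -1.06 ± 0.47 (SE), on 103 injury and 224 naive counts with overlapping groups (edgeR adjusted p = 0.158). The summed level was 214 to 235 CPM in injury and 240.5 to 259 CPM in naive libraries. Of 5 other cytosolic subunits and scaffold genes, 0 were called by edgeR, DESeq2 or limma-voom, and 0 had an unadjusted p under 0.05. Farsa and Farsb, the subunits of the phenylalanyl enzyme, had 0.10 and 0.11, and the complex scaffolds Aimp1, Aimp2 and Eef1e1 had -0.13, 0.11 and -0.18. The differences between these lists and the cytosolic enzymes were not tested.

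**Figure D4:**
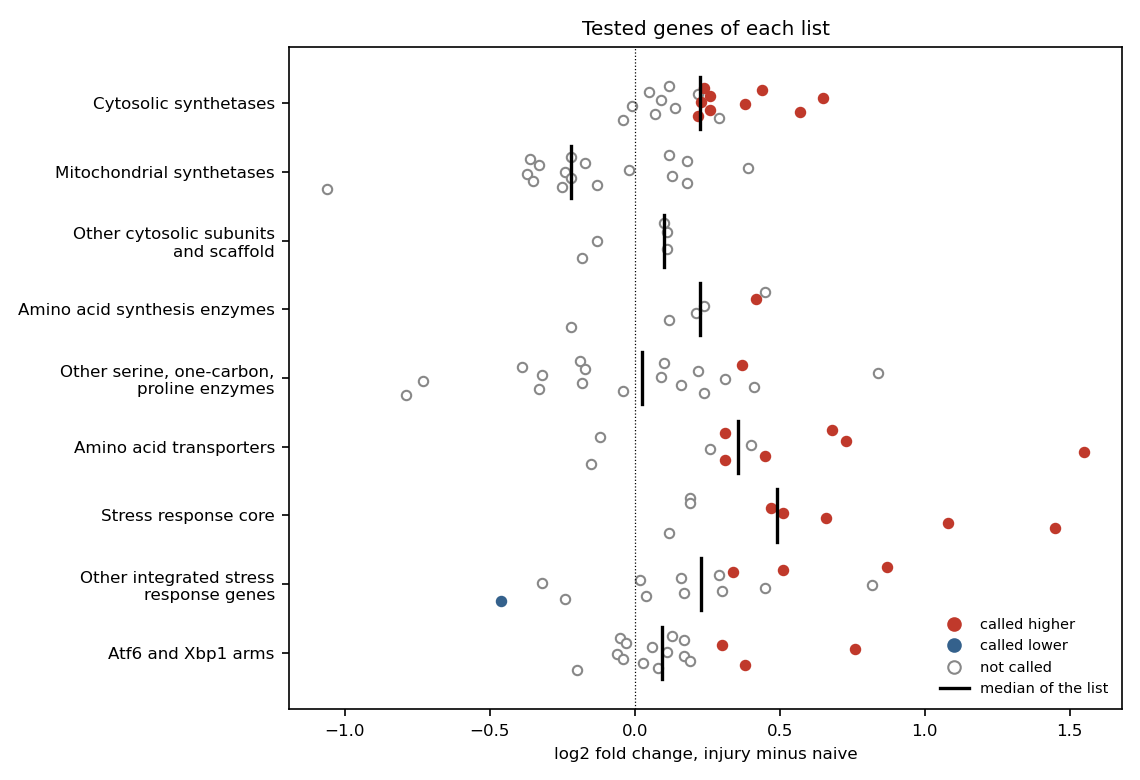
Log2 fold change of injury over naive on the horizontal axis for each tested gene of 9 lists on the vertical axis; filled red dots were called higher, filled blue lower, open dots were not called, and the vertical bar is the list's median. The cytosolic synthetases have a median of 0.22 with 9 genes called higher, and the mitochondrial synthetases a median of -0.22 with 0 called. The list labelled amino acid synthesis enzymes includes the folate enzyme Mthfd2.

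Of 12 genes for amino acid carriers, 10 were tested, 6 rose and 0 fell, with a median log2 fold change of 0.35. Of all tested genes, 8.12% rose and 4.47% fell. The count of carriers that rose was 5 with the replicate block or limma-voom, and 5 to 6 with 1 library left out. The largest change, that of Slc6a9, rested on 226 injury and 90 naive counts with overlapping groups (log2 fold change 1.55 ± 0.50 (SE), edgeR adjusted p = 0.043). Slc6a9 was called in 6 of 15 alternatives. Slc38a1, a glutamine carrier, had 137 to 173 CPM in injury libraries, against 82.4 to 103 CPM in naive libraries (log2 fold change 0.73 ± 0.08 (SE), edgeR adjusted p = 5.80e-07). Slc1a4, a carrier of alanine, serine and cysteine, had 64.6 to 91.6 CPM in injury libraries, against 45.6 to 54.3 CPM in naive libraries (log2 fold change 0.68 ± 0.10 (SE), edgeR adjusted p = 2.84e-05). Slc3a2, the heavy chain CD98 shared by several exchangers, rose by 0.45 and Slc7a1, a carrier of cationic amino acids, by 0.31 on the log2 scale (edgeR adjusted p = 3.08e-05 and 0.00186). Among 20 further enzymes of serine, folate, proline and transamination pathways, 18 were tested and Got1, cytosolic aspartate aminotransferase, rose alone (log2 fold change 0.37 ± 0.06 (SE), edgeR adjusted p = 0.000256), with a list median of 0.02.

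Of 16 other genes of the integrated stress response, 14 were tested, 3 rose and 1 fell. Of all tested genes, 8.12% rose and 4.47% fell. Ppp1r15b, the constitutive counterpart of Ppp1r15a, had 70.7 to 86.1 CPM in injury libraries, against 53.3 to 71.3 CPM in naive libraries (log2 fold change 0.34 ± 0.09 (SE), edgeR adjusted p = 0.0133), and was not called without injury library 2 (0.0683). Cebpb, a C/EBP factor that can pair with Atf4, had 23.5 to 37.1 CPM in injury libraries, against 14.3 to 24.4 CPM in naive libraries (log2 fold change 0.51 ± 0.16 (SE), edgeR adjusted p = 0.0422). Its call was lost with the replicate block (0.0853), with library totals (0.0639) and without injury library 2, 3 or 4 or naive library 2, 3 or 4 (0.0509 to 0.156). Eif4ebp1, a translation inhibitor, had 4.12 to 7.53 CPM in injury libraries, against 2.37 to 3.98 CPM in naive libraries (log2 fold change 0.87 ± 0.27 (SE), edgeR adjusted p = 0.0362); it was not called without injury library 1, 2 or 3 or naive library 1, 2 or 4 (0.0596 to 0.114), nor without both libraries of number 1 (0.137). Ddit4, an inhibitor of mTORC1, fell (66.2 to 92.8 CPM in injury libraries, against 90.9 to 121 CPM in naive libraries; log2 fold change -0.46 ± 0.11 (SE), edgeR adjusted p = 0.00933).

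Other cell types of the ganglion were read from marker lists. Summed Schwann cell markers were 705 to 908 CPM in injury and 727 to 1090 CPM in naive libraries, satellite glia markers 1457 to 1694 CPM in injury and 1309 to 1671 CPM in naive libraries, and macrophage markers 14.2 to 21.6 CPM in injury and 10.7 to 18.2 CPM in naive libraries. Neutrophil markers summed to 120.1 to 247 CPM in injury and 131 to 426 CPM in naive libraries, endothelial markers to 86.5 to 160.2 CPM in injury and 77.6 to 126 CPM in naive libraries, and fibroblast markers to 171 to 257 CPM in injury and 157 to 326 CPM in naive libraries. These ranges overlap between the groups, and no marker found in the table was at 0 in every library. Of 43 markers of these 6 cell types, 41 were tested and 2 were called, both higher: Glul of satellite glia (edgeR adjusted p = 6.37e-07) and Pdgfra of fibroblasts (0.0287; not called without injury library 2, 3 or 4 or naive library 2 or 3, 0.0595 to 0.075). Over all tested genes, 8.12% were called higher and 4.47% lower. Of the 10 neuron markers, Isl1 and Tac1 were called lower (edgeR adjusted p = 0.00212 and 0.000351). Their part in the changes above was not tested.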

How the data were processed

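The authors deposited raw counts per gene symbol for 8 libraries, as whole numbers. The tools behind them, per the submitters' processing notes, were STAR, HTSeq and bcl2fastq 2.17, on build GRCm38 (mm10). For STAR and HTSeq no version, annotation or strand setting is given in the sources used here. Of 24060 rows, 27 hold a date in place of a symbol; they took 0.146% to 0.158% of counts and were left out. Taking 3 counts as the limit that a count of 0 allows, the floor was 0.102 to 0.195 CPM; it covers counting error only, because these reads carry no molecular identifiers.

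Genes were kept by filterByExpr, scaled by TMM and tested with edgeR 4.0.16 (robust quasi-likelihood F-test, R 4.3.3), injury against naive without a block; the script was tested on simulated data. The SE is approximate: the size of the log2 fold change over the square root of F. The common biological coefficient of variation was 17.1%. Alternatives were DESeq2 size factors, library totals, no filter on low counts, a minimum mean of 5 CPM, DESeq2 1.42.0, limma-voom (limma 3.58.1), a replicate block, leaving out each library, and leaving out both libraries of number 1.

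The series' design text was read as saying that injured and opposite-side ganglia of a repeat came from the same 2 mice. The replicate numbers of the titles were taken as repeat numbers, and the block and the ratios between same-numbered libraries rest on that reading. Deviations of same-numbered libraries from the group means correlated at 0.0352 to 0.0569, and 3 of 4 injury libraries correlated best with the naive library of their own number. No library was a repeat deposit of another of its group: counts differed by more than sampling noise in every pair.

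The 35 genes and the lists were chosen with earlier results of these data known. All 35 are named, and from each further list the 4 genes with the smallest p and any gene of a count of 5 or fewer; some items that these rules name are not reported here. Of the marker lists, Adgre1 was found as Emr1 through RefSeq synonyms, and Ly6g was not found under any symbol used here. Gene positions are RefSeq's on GRCm38.p6, and overlapping genes are those of GENCODE M21 on GRCm38.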

Additional observations from a re-analysis of the deposited data

Results flagged for a closer look

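In groups of 4 libraries, the highest or lowest library was singled out where its gap to the nearest other, divided by the group's range, exceeded Dixon's critical value for 4 values. Of 114 groups checked, 5 did so, and chance gives about 1 in 20. Among the 35 genes, Atf5 stood at 106 CPM in injury library 4, against 84.5 to 87.5 CPM in the other injury libraries. Aldh18a1 stood at 3.91 CPM in naive library 4, against 2.32 to 2.59 CPM in the other naive libraries. Of the further genes named, Ddit4 stood at 92.8 CPM in injury library 1 (66.2 to 67.9 CPM in the others). Farsb stood at 119 CPM in naive library 1 (149 to 151 CPM in the others) and Cebpb at 14.3 CPM in naive library 3 (23.1 to 24.4 CPM).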

How the results depend on the processing

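Over 511 comparisons of a tested gene with an alternative setting, 469 kept their side of the threshold, 34 lost a call, 8 gained one and 0 reversed a called direction. Of the genes not called, 15 were called under no alternative. Library totals in place of TMM gave 1001 genes lower among all genes, where TMM gave 609, and 4 synthetases higher, where TMM gave 9; the median over all genes was then -0.057 on the log2 scale. Leaving out 1 library gave 4 to 9 synthetases higher, 10 to 15 of the 35 genes higher and 847 to 1156 of all genes higher. The core genes stayed at 5 higher and the amino acid and folate enzymes at 1 in each of those fits. The replicate block changed the call of 2 of the 35 genes, Yars and Lars, both to higher (11 synthetases), and of no other. For calls lost or gained, the cause was not tested. Qars and Vars, both uncalled, changed sign in 3 settings each. Sesn2, Phgdh and Pycr1 were tested only without the low-count filter, where adjusted p was 0.692, 0.801 and 0.719; at 3 counts or fewer in some libraries, depth limits what can be said of them.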

Other observations

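Genes of the Atf6 and Xbp1 arms of the endoplasmic reticulum stress response were read as a neighbouring pathway. Of 17, 16 were tested, 3 rose and 0 fell, with a median log2 fold change of 0.09. Of all tested genes, 8.12% rose and 4.47% fell. Hspa5, the chaperone BiP, had 1073 ± 79.9 CPM in injury and 823 ± 32.8 CPM in naive libraries (SD, n = 4; log2 fold change 0.38 ± 0.06 (SE), edgeR adjusted p = 2.31e-05). Sdf2l1, a partner of endoplasmic reticulum chaperones, had 15.6 ± 1.66 CPM in injury and 9.12 ± 2.005 CPM in naive libraries (log2 fold change 0.76 ± 0.17 (SE), edgeR adjusted p = 0.00348). Xbp1, the transcription factor activated by Ire1 splicing, had 75.3 ± 3.81 CPM in injury and 61.2 ± 3.82 CPM in naive libraries (log2 fold change 0.30 ± 0.08 (SE), edgeR adjusted p = 0.013) and was not called without injury library 3 or 4 or naive library 3 or 4 (adjusted p 0.0509 to 0.0619). Calr (calreticulin) had 464 ± 49.7 CPM in injury and 406 ± 26.3 CPM in naive libraries (log2 fold change 0.19 ± 0.07 (SE), edgeR adjusted p = 0.0691) and was called with the replicate block (0.0115), without injury library 1 (0.00308) and without both libraries of number 1 (0.00629). The 13 tested genes of this list that were not called, Calr among them, had log2 fold changes of -0.20 to 0.19.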
